A study of Mus musculus with 7 samples.

Results

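Chemokine ligands are small secreted proteins that draw leukocytes towards the cells that make them. The 10 ligands described here, Ccl3, Ccl4, Ccl5, Ccl6, Ccl9, Ccl20, Ccl24, Xcl1, Cxcl2 and Cxcl16, were taken by gene name from a deposited table of 54532 mouse genes, and each name had 1 entry. They are typical products of T cells, natural killer (NK) cells, macrophages and granulocytes. The libraries came from spleen cells positive for the reporter, labelled Th17 and sorted by flow cytometry, of IL-17GFP/+ reporter mice, which carry green fluorescent protein (GFP) as a marker of IL-17. There were 3 libraries of mice with periodontitis, brought about by tying silk around the lower first molars on both sides, and 4 libraries of mice that received no ligature, called health here. Both groups carry the same reporter. The sources used here give no age, no time after ligature and no statement that each library is 1 mouse, so p-values measure the spread between libraries. Libraries are numbered by their names, 2 to 4 in periodontitis and 1 to 4 in health.

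Chemokines are grouped by the spacing of their first cysteines into the CC, CXC and C families, whose genes begin with Ccl, Cxcl and Xcl. They act through receptors that span the cell membrane and couple to G proteins, and a ligand often shares its receptors with others. In the spleen they position lymphocytes, macrophages and granulocytes between the red pulp and the white pulp, and activated T cells and NK cells release several of them as part of their effector program.

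Recovered reads numbered 13513806 to 16717942 per library in periodontitis and 14161438 to 17891393 in health. All 4 T cell markers (the CD3 chains and Cd247) and all 4 gamma-delta T cell markers were higher in periodontitis, and their summed levels did not overlap between groups: 306 to 752 FPKM (fragments per kilobase of gene, scaled to sequencing depth) against 32.9 to 94.1 FPKM for T cells, and 433 to 558 FPKM against 7.59 to 26.8 FPKM for gamma-delta T cells. Il17a, the cytokine gene that marks these cells, had 362, 269 and 136 FPKM in periodontitis 2 to 4, against 3.76, 0, 1.13 and 0 FPKM in health 1 to 4, so this defining marker was at or near 0 in health. All 10 macrophage markers were lower in periodontitis, with a summed level of 328 to 797 FPKM against 3876 to 11330 FPKM in health. Neutrophil markers were abundant in both groups (4938 to 21020 FPKM in periodontitis, 13680 to 22190 FPKM in health), with 2 of 8 lower. Y-linked Ddx3y had 9.22 to 16.9 FPKM in the periodontitis libraries and 0 in the health libraries, so sex and periodontitis cannot be told apart. Periodontitis 4 stood apart with the fewest genes read, 12226 against 15322 to 19721 in the other 6 libraries, and 4 of the 10 ligands had no read there.

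The 5 Ccl genes Ccl5, Ccl9, Ccl6, Ccl3 and Ccl4 lie in that order within 139 kb of chromosome 11 (mm10, positions as deposited). Ccl5 spans chr11:83525778-83530518, Ccl9 chr11:83572919-83578636, Ccl6 chr11:83587882-83593087 and Ccl3 chr11:83647844-83649355, all on the minus strand, and Ccl4 chr11:83662584-83664683 on the plus strand. Cxcl16 lies apart at chr11:70453983-70459984 (minus). Ccl20 is at chr1:83116766-83119167 (plus), Xcl1 at chr1:164931644-164935527 (minus), Ccl24 at chr5:135569937-135573049 (minus) and Cxcl2 at chr5:90903871-90905938 (plus). All 10 are annotated as protein coding. The counting is not stated to use strand, so reads of Ccl6, Xcl1 and Cxcl16 cannot be told from those of E230016K23Rik, Gm20743 and Zmynd15, which overlap them on the opposite strand and were each at or under 1.88 FPKM in every library.

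RefSeq (GRCm38.p6) gives a promoter window for 6 of the 10 genes, and the 250 bases before the start are shown for 3 of them. Ccl6 and Ccl9 are shown because they are neighbours, 9.2 kb apart on the same strand, and only Ccl6 passed the test for a difference between groups. Ccl20 is shown because nearly all of its reads came from periodontitis 2 and 3. Each sequence runs 5′ to 3′ on the gene's own strand, and capitals mark the letters of 4 motifs found on either strand: the degenerate NF-kB consensus (kappaB site), GAGGAA (the purine-rich core of PU.1 and other ETS factors with a flank), TGANTCA (AP-1) and TATAAA.
Ccl6 (chr11:83593088-83593337, minus): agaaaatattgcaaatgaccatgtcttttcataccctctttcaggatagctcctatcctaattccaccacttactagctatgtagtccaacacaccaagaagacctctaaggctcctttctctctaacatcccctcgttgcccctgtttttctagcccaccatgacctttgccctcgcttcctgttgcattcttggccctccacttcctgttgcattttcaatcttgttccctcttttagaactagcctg
Ccl9 (chr11:83578637-83578886, minus): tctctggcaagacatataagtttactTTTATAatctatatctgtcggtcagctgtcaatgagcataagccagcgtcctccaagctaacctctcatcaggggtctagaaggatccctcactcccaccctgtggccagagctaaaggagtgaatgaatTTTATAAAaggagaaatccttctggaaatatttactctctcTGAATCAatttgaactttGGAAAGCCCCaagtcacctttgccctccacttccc
Ccl20 (chr1:83116516-83116765, plus): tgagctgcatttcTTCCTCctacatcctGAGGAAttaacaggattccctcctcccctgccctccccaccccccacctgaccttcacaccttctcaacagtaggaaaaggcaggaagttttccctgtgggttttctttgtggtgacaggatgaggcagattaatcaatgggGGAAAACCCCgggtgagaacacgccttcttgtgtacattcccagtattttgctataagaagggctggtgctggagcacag
The Ccl6 window holds none of the 4 motifs as spelled here. The ETS core with other flanks was not searched, so the window is not said to lack it. In the Ccl9 window the NF-kB letters begin 35 bases before the start and the AP-1 letters 53 bases before it. TATAAA lies there on both strands in 1 overlapping stretch, at 92 and 94 bases before the start, and once more on the opposite strand at 224. The Ccl20 window holds the NF-kB letters at 80 bases before the start and GAGGAA at 222 and 237, on opposite strands. Of 32851 RefSeq windows of the same length, 7.25% hold the NF-kB consensus, 23.3% GAGGAA, 6.75% TGANTCA and 12.4% TATAAA. Of the other 3 windows, that of Ccl3 holds GAGGAA once, 33 bases before the start, that of Cxcl2 holds the NF-kB letters on both strands in 1 overlapping stretch, at 96 and 97 bases before the start, and that of Xcl1 holds none of the 4. A match of letters is a description of the sequence and not evidence of binding.

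Periodontitis libraries were compared with health libraries to ask which ligand transcripts differ between the sorted cells of the groups. Ccl6 and Ccl24, CC ligands of myeloid cells, fell in periodontitis. The other 8 ligands did not pass the test, and among these the libraries of 1 group often differed more than the groups did. Levels were tested with limma on log2(FPKM + 1), and p-values were adjusted over the 12999 genes whose levels averaged 1 FPKM or more across the 7 libraries. With a threshold of 0.05, 0 of the 10 ligands were higher, where 5.63% of all genes tested were, and 2 were lower, where 10.2% of all genes were. At an unadjusted p under 0.05 the count of higher ligands was also 0, as it was with limma voom on the recovered reads. The median log2 fold change was 0.16 over the 10 ligands and -0.06 over all genes tested, with 5 ligands above 0 and 5 below. All 10 passed the filter on low levels, but Ccl24 reached a mean of 1 FPKM through health alone and Ccl20 through periodontitis alone. These are bulk libraries, so fewer cells of a type and less RNA per cell cannot be told apart.

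**Figure D1:**
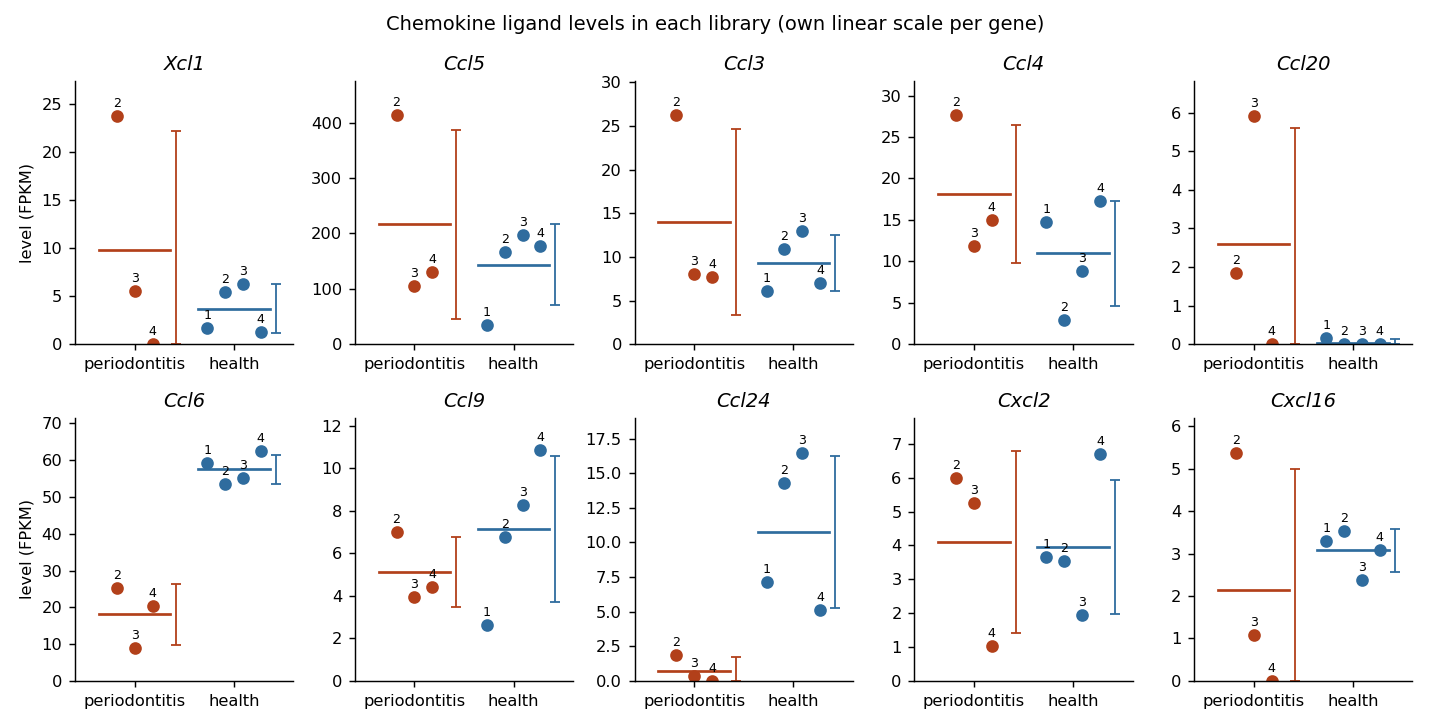
Level of each ligand in each library in FPKM (linear axis, own scale per gene). Points are libraries with their numbers, periodontitis in red on the left and health in blue on the right, horizontal lines are group means, and bars beside the points are ± 1 SD, cut at 0. The groups of Ccl6 and Ccl24 are apart, and those of the other 8 ligands overlap.

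The 4 ligands of activated lymphocytes were each highest in periodontitis 2, as was Cxcl16 (5.37 FPKM), and for each of them the groups overlapped. Xcl1 (lymphotactin), which NK cells and activated T cells release to draw Xcr1-bearing dendritic cells, had 23.7, 5.57 and 0 FPKM in periodontitis 2 to 4, against 1.73, 5.45, 6.27 and 1.30 FPKM in health 1 to 4. Periodontitis 2 was the highest library and periodontitis 4 the lowest, so the health libraries lay inside the periodontitis range. The 0 of periodontitis 4 allows up to 0.405 FPKM by counting error alone, the value of 3 reads there. Means were 9.75 ± 12.4 FPKM in periodontitis and 3.69 ± 2.54 FPKM in health (SD, n = 3 and 4), and the log2 fold change of 0.40 ± 0.96 (SE) did not pass (limma, adjusted p = 0.813). It was -0.69 without periodontitis 2 and 1.62 without periodontitis 4.

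Ccl5 (RANTES), a product of effector and memory T cells and NK cells that binds Ccr1 and Ccr3 among others, was the most abundant ligand in 6 of the 7 libraries. It had 413, 105.5 and 130 FPKM (5891, 1702 and 1774 reads) in periodontitis 2 to 4, against 34.6, 167, 196 and 177 FPKM (551, 2699, 2988 and 2499 reads) in health 1 to 4. Periodontitis 2 was above and health 1 below every other library, while periodontitis 3 and 4 lay below the other 3 health libraries. The mean was 216 ± 171 FPKM in periodontitis and 144 ± 73.8 FPKM in health (SD, n = 3 and 4). The log2 fold change was 0.58 with a 95% interval of -1.0 to 2.16 (limma, adjusted p = 0.612), and it was -0.03 without periodontitis 2 and -0.01 without health 1.

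Ccl3 and Ccl4, the macrophage inflammatory proteins 1-alpha and 1-beta, are made by macrophages, NK cells and activated T cells. Ccl3 had 26.3, 8.0 and 7.73 FPKM in periodontitis 2 to 4, against 6.13, 10.9, 12.9 and 7.03 FPKM in health 1 to 4. Ccl4 had 27.6, 11.9 and 15.0 FPKM in periodontitis, against 14.8, 2.97, 8.79 and 17.2 FPKM in health. Periodontitis 2 was the highest library for both genes, and the remaining libraries of the groups overlapped. The log2 fold change was 0.38 (95% interval -0.62 to 1.39, adjusted p = 0.591, limma) for Ccl3 and 0.81 (-0.40 to 2.02, adjusted p = 0.337) for Ccl4. Without periodontitis 2 it was -0.16 for Ccl3 and 0.48 for Ccl4.

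Periodontitis 2 was also the highest library for the T cell marker sum (752 FPKM, against 306 to 335 FPKM in the other periodontitis libraries). Within its group it also led the sums of macrophage (797 FPKM), neutrophil (21020 FPKM), basophil and mast cell, B cell and erythroid markers. It did not lead the sums of gamma-delta T cell (433 FPKM, against 558 FPKM in periodontitis 4), eosinophil, dendritic cell or plasma cell markers. Features under 200 bases held 1.40% of its FPKM, against 36.7% and 24.2% in periodontitis 3 and 4. The total that scaled its FPKM was 0.889 times its recovered reads, against 1.12 and 1.05 times in periodontitis 3 and 4. This raises its FPKM relative to theirs. The lowest adjusted p among the 5 NK markers was 0.202 (limma, Eomes), and their sum was 42.5 to 113 FPKM in periodontitis and 18.4 to 95.3 FPKM in health. Its high end in periodontitis 2 is Gzma, a granzyme also made by T cells (95.7 FPKM, against 26.2 and 24.7 FPKM in periodontitis 3 and 4), and the other 4 NK markers summed to 17.3, 18.4 and 17.8 FPKM in periodontitis 2 to 4. The part of these cells in the levels of Xcl1, Ccl5, Ccl3 and Ccl4 was not tested.

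Ccl20, the ligand of Ccr6 and a chemokine that Th17 cells themselves can make, was read almost only in periodontitis 2 and 3. It had 1.85, 5.90 and 0 FPKM (39, 141 and 0 reads) in periodontitis 2 to 4, against 0.17, 0, 0 and 0 FPKM (4 reads in health 1 and none in the others). Both libraries with a clear signal were of periodontitis, but periodontitis 4, where 3 reads are worth 0.149 FPKM, was as low as health. The log2 fold change of 1.38 ± 0.63 (SE) did not pass (limma, adjusted p = 0.186). Without periodontitis 4 it was 2.09 with an adjusted p of 0.0230, and without periodontitis 3 the gene fell under the filter on low levels. Ccl20 passed that filter through periodontitis alone, and periodontitis 4 was the library of its group with no read. Both favour a call when periodontitis 4 is left out, so that p-value is no further support.

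Ccl6 and Ccl24 were the ligands that fell. Ccl6 (C10), a rodent CC chemokine of macrophages, neutrophils and other myeloid cells that acts through Ccr1, had 25.2, 8.98 and 20.2 FPKM (671, 271 and 515 reads) in periodontitis 2 to 4, against 59.1, 53.5, 55.0 and 62.3 FPKM (1761, 1618, 1566 and 1642 reads) in health 1 to 4. Every periodontitis library was below every health library, a separation in this direction that 17.2% of all genes tested also showed, and health varied little. The mean was 18.1 ± 8.29 FPKM in periodontitis and 57.5 ± 3.996 FPKM in health (SD, n = 3 and 4), 3.17-fold higher in health. This was a log2 fold change of -1.72 (95% interval -2.46 to -0.99, limma, adjusted p = 0.00845).

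Ccl24 (eotaxin-2), which macrophages make and which draws eosinophils through Ccr3, had 1.87, 0.367 and 0 FPKM (36, 8 and 0 reads) in periodontitis 2 to 4, against 7.12, 14.3, 16.5 and 5.10 FPKM (153, 312, 338 and 97 reads) in health 1 to 4. The groups did not overlap, and the highest periodontitis library was below the lowest health library, as for 17.2% of all genes tested. Ccl24 passed the filter on low levels through health alone, which favours such a separation and a low p-value. The mean was 0.746 ± 0.991 FPKM in periodontitis and 10.8 ± 5.49 FPKM in health (SD, n = 3 and 4), 14.4-fold higher in health. Periodontitis 2 holds 36 of the 44 reads of its group, and without that library the periodontitis mean was 0.184 FPKM and the level in health 58.5-fold higher. On the log2 scale the change was -2.77 (95% interval -3.86 to -1.67, limma, adjusted p = 0.00605).

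Both calls held when any 1 library was left out, with adjusted p-values of 0.00729 to 0.0261 for Ccl6 and 0.00678 to 0.0240 for Ccl24. Beside them, all 10 macrophage markers fell with a median log2 fold change of -3.84 and single values between -4.79 (Cd163) and -2.84 (Cd68). Of all genes tested, 10.2% fell. Of the 8 neutrophil markers, Ltf and Mpo fell, and of the 4 eosinophil markers tested, Ear2 fell, to 19.3 to 46.3 FPKM in periodontitis, against 98.1 to 225 FPKM in health. The summed eosinophil level was 27.2 to 79.9 FPKM in periodontitis and 141 to 285 FPKM in health, and without Ear2 the groups overlapped, at 7.95 to 49.2 FPKM in periodontitis and 8.78 to 111 FPKM in health. Siglecf, the defining surface lectin of eosinophils, had 0, 0.128 and 0 FPKM in periodontitis and 0.979 to 1.51 FPKM in health. Of 6 dendritic cell markers tested 3 fell, with a sum of 15.8 to 26.2 FPKM in periodontitis and 44.8 to 57.4 FPKM in health. The part of these cells in the levels of Ccl6 and Ccl24 was not tested.

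Ccl9 (macrophage inflammatory protein 1-gamma), the neighbour of Ccl6 and likewise a rodent myeloid chemokine of Ccr1, had 7.03, 3.95 and 4.4 FPKM in periodontitis 2 to 4, against 2.63, 6.79, 8.26 and 10.9 FPKM in health 1 to 4. Health 1 was the lowest library of all and periodontitis 2 lay within the range of health. Its log2 fold change was -0.32 (95% interval -1.24 to 0.60, limma, adjusted p = 0.631). Health 1 had the highest macrophage marker sum, 11330 FPKM against 3876 to 5491 FPKM in health 2 to 4, and the part of macrophages in the level of Ccl9 was not tested.

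The ratio of Ccl6 to Ccl9 within a library, chosen after the values of both were seen, was 3.58, 2.28 and 4.6 in periodontitis 2 to 4, against 22.5, 7.89, 6.66 and 5.74 in health 1 to 4. Every periodontitis library was below every health library, and health 1 was far above the other 3. The log2 ratio averaged 1.56 in periodontitis and 2.97 in health, a difference of -1.40 (exact two-sided permutation test over 35 arrangements, p = 0.0571, the smallest this design allows, and 0.114 when adjusted over the 2 ratios computed). The ratio of Ccl4 to Ccl3, chosen in the same way, was 1.05, 1.49 and 1.93 in periodontitis, against 2.41, 0.272, 0.680 and 2.45 in health. Here the periodontitis libraries lay between the extremes of health, with a difference of 0.43 in the log2 ratio (exact two-sided permutation test, p = 0.743).

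**Figure D2:**
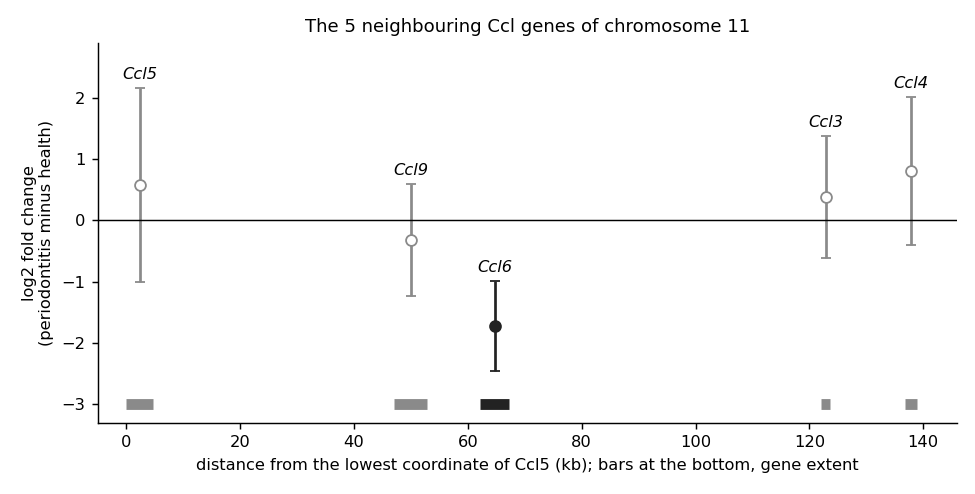
Log2 fold change (periodontitis minus health) of the 5 neighbouring Ccl genes against distance along the chromosome from the lowest coordinate of Ccl5, in kb. Points are estimates, vertical bars 95% intervals, blocks at the bottom the extent of each gene. Only Ccl6, filled, passed the test at -1.72, and the intervals of its 4 neighbours include 0.

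Cxcl2, an attractant of neutrophils through Cxcr2 that is made early in inflammation, had 5.99, 5.26 and 1.02 FPKM in periodontitis 2 to 4, against 3.67, 3.53, 1.95 and 6.69 FPKM in health 1 to 4. Means lay close together, 4.09 ± 2.68 FPKM in periodontitis and 3.96 ± 1.98 FPKM in health (SD, n = 3 and 4), and periodontitis 4 was the lowest library. The log2 fold change was -0.07 with a 95% interval of -1.19 to 1.05 (limma, adjusted p = 0.937), and it was 0.50 without periodontitis 4 and 0.17 without health 4.

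Cxcl16 is made as a membrane-bound protein that holds Cxcr6-bearing cells and is set free by proteases, Adam10 and Adam17 among them. It had 5.37, 1.08 and 0 FPKM (241, 55 and 0 reads) in periodontitis 2 to 4, against 3.29, 3.54, 2.38 and 3.09 FPKM (165, 180, 114 and 137 reads) in health 1 to 4. Health was even, while periodontitis held both the highest and the lowest library. The 0 of periodontitis 4, the library with the fewest genes read, allows up to 0.0700 FPKM by counting error alone. The log2 fold change of -0.77 ± 0.56 (SE) did not pass (limma, adjusted p = 0.382), and without periodontitis 2 it was -1.49 with an adjusted p of 0.0423. Adam10 had 18.2, 20.1 and 37.0 FPKM in periodontitis, against 40.7, 21.7, 22.2 and 25.8 FPKM in health (log2 fold change -0.16, limma, adjusted p = 0.774). Adam17 had 7.49, 12.3 and 11.6 FPKM in periodontitis, against 21.5, 15.4, 15.3 and 13.2 FPKM in health. Its groups did not overlap, as for 17.2% of all genes tested in this direction. It did not pass (log2 fold change -0.61, 95% interval -1.17 to -0.04, limma, adjusted p = 0.139). Shedding itself was not tested.

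**Figure D3:**
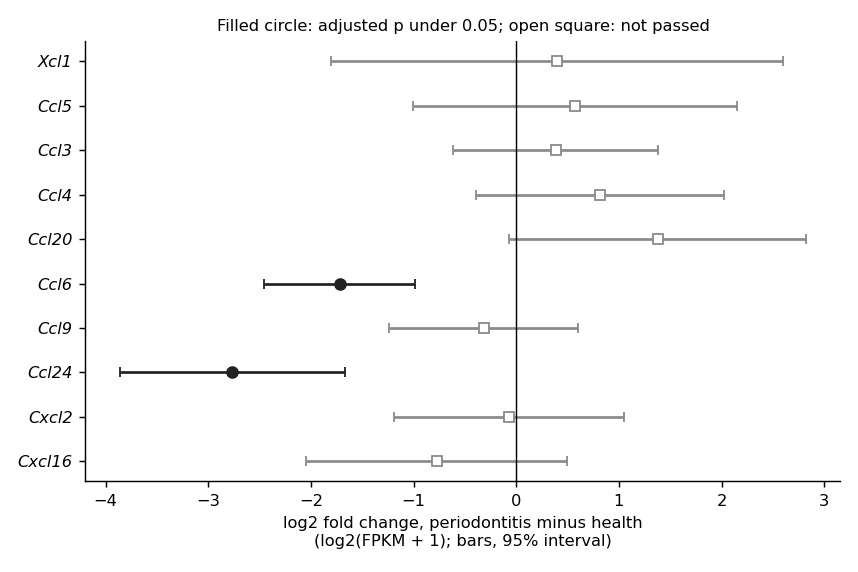
Log2 fold change (periodontitis minus health, on the log2(FPKM + 1) scale) of each ligand, with its 95% interval. Filled circles passed the test at an adjusted p under 0.05 and open squares did not. Ccl6 at -1.72 and Ccl24 at -2.77 passed, and the intervals of the other 8 ligands include 0.

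On the FPKM scale, which is per gene length, Ccl5 stood above every other ligand in each periodontitis library, with a lowest value of 105.5 FPKM against a highest value of 27.6 FPKM among the other 9. Below it the group means in periodontitis ran from Ccl4 (18.2 FPKM), Ccl6, Ccl3, Xcl1, Ccl9, Cxcl2, Ccl20 and Cxcl16 to Ccl24 (0.746 FPKM), and each overlapped its neighbour in this order. In health Ccl5 (144 FPKM) overlapped Ccl6 (57.5 FPKM) through health 1, and Ccl6 was above Ccl4 (10.95 FPKM) in every library. From Ccl4 through Ccl24, Ccl3, Ccl9, Cxcl2 and Xcl1 to Cxcl16 (3.08 FPKM) each overlapped its neighbour, and Ccl20 (0.0424 FPKM) was last and apart.

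The 10 ligands summed to 538, 156.5 and 179 FPKM in periodontitis 2 to 4, against 133, 268, 308 and 291 FPKM in health 1 to 4. The groups overlapped in this sum. Ccl5 made up 76.8%, 67.4% and 72.9% of it in periodontitis, against 26.0%, 62.3%, 63.7% and 61.0% in health, and Ccl6 4.68%, 5.74% and 11.3% in periodontitis, against 44.4%, 19.97%, 17.8% and 21.4% in health. Health 1 was the 1 library in which Ccl6 exceeded Ccl5. Ccl6 there (59.1 FPKM) was within the range of the other health libraries, and Ccl5 (34.6 FPKM) was the lowest of all libraries. Health 1 had the highest macrophage marker sum and the lowest sums of several other types, among them T cells (32.9 FPKM) and NK cells (18.4 FPKM). The part of these cells in the order of Ccl6 and Ccl5 was not tested.

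**Figure D4:**
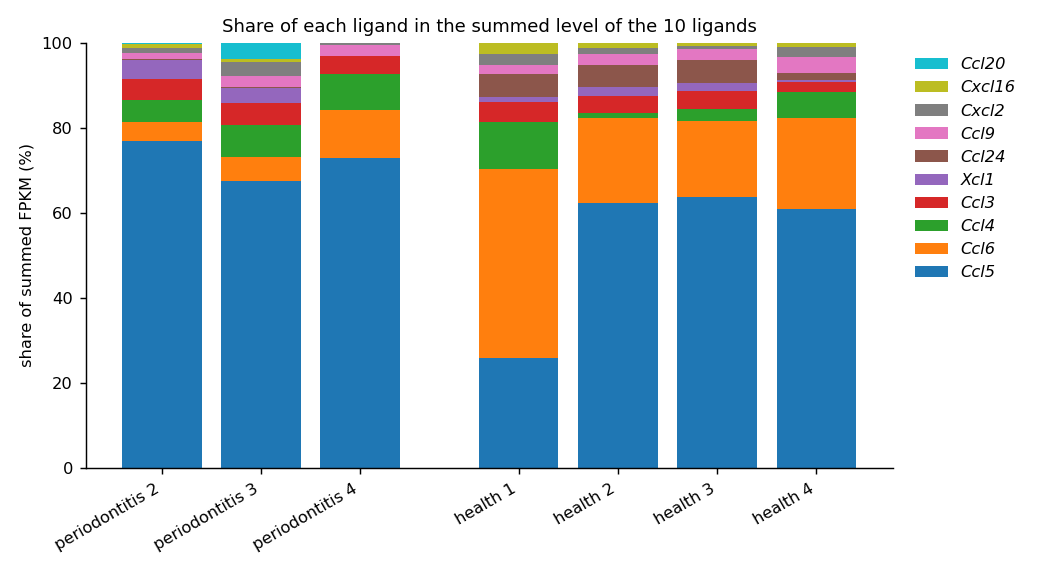
Share of each of the 10 ligands in their summed FPKM (%), with 1 bar per library, periodontitis 2 to 4 on the left and health 1 to 4 on the right. Ccl5 (bottom, blue) made up 67.4% or more of each periodontitis bar, and Ccl6 (orange) 17.8% or more of each health bar.

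Of 27 other chemokine ligand genes listed, 6 passed the filter on low levels and none passed the test in limma, 0 higher and 0 lower. At an unadjusted p under 0.05 the count was 0 higher and 1 lower (Cxcl9), with limma and with voom alike. Cxcl9, an interferon-induced ligand of Cxcr3, had 2.19, 1.54 and 5.45 FPKM in periodontitis 2 to 4, against 11.4, 5.71, 9.09 and 5.44 FPKM in health 1 to 4 (log2 fold change -1.20, limma, adjusted p = 0.0674). Its sister Cxcl10 had 1.73, 2.03 and 5.73 FPKM in periodontitis, against 6.31, 4.06, 8.01 and 2.93 FPKM in health (adjusted p = 0.314). For both genes periodontitis 4 was the highest of its group and overlapped health.

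The remaining 4 tested were Ccl22, a ligand of Ccr4, the platelet chemokines Pf4 and Ppbp, and Ccl21a, a stromal ligand of Ccr7 that had 12.3 FPKM in periodontitis 4 and at most 0.150 FPKM in any other library and that has near-identical copies in the mouse genome. The monocyte attractant Ccl2, under the filter and singled out after its values were seen, had no read in periodontitis, against 1.75, 2.03, 1.88 and 1.20 FPKM (33, 39, 34 and 20 reads) in health. Against 3 reads over the periodontitis group its level was at least 29.7-fold higher in health. The 10 ligands described above held 92.2%, 91.9% and 73.0% of the summed FPKM of all 37 in periodontitis, against 77.9%, 84.0%, 85.6% and 82.8% in health.

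Of 23 chemokine receptor genes listed, 21 were tested, and 6 were higher and 2 lower in periodontitis, with a median log2 fold change of 0.61. Of all genes tested, 5.63% were higher and 10.2% lower, so the count of lower receptors is near that share. Those higher were Ccr2 (log2 fold change 2.16), Ccr4 (2.51), Ccr6 (2.18), Ccr10 (2.94), Cxcr3 (2.06) and Cxcr6 (4.78), all receptors of effector or memory T cells among others. Those lower were Ccr3 (-3.95) and Cxcr2 (-2.01), known as receptors of eosinophils and neutrophils among others. Taking levels relative to the mean of the 4 CD3 markers moves the median log2 fold change of all genes by -2.55. Cxcr6 is then the 1 receptor still called higher and 14 are called lower, as are 94.2% of all genes. Receptors of the ligands follow. Ccr3 had 7.55, 6.02 and 9.94 FPKM in periodontitis 2 to 4, against 262, 127, 127 and 73.7 FPKM in health 1 to 4 (limma, adjusted p = 0.000783). Ccl24 and this receptor thus both fell, while Ccl5, which also binds it, did not pass. Of the eosinophil markers in health, Siglecf had 0.979 to 1.51 FPKM, Epx 0.760 to 10.9 FPKM and Ear2 98.1 to 225 FPKM. Like the macrophage marker sum (11330 FPKM) and the eosinophil marker sum (285 FPKM), Ccr3 was highest in health 1. Without Ear2 the eosinophil sum was highest in health 4 (111 FPKM, against 59.7 FPKM in health 1). Which cells held Ccr3 was not tested.

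Cxcr6, the receptor of Cxcl16, had 319, 249 and 210 FPKM in periodontitis, against 9.14, 7.35, 12.4 and 5.61 FPKM in health (limma, adjusted p = 0.000123). Ccr6, the receptor of Ccl20, had 29.0, 64.4 and 77.5 FPKM in periodontitis, against 9.56, 9.60, 10.1 and 14.8 FPKM in health (limma, adjusted p = 0.00391). Its level in periodontitis 4, where Ccl20 had no read, was the highest of all. Cxcr2, the receptor of Cxcl2, had 11.02, 7.51 and 10.6 FPKM in periodontitis, against 23.4, 64.0, 37.0 and 53.6 FPKM in health (limma, adjusted p = 0.00559). Short of the threshold were Ccr1, shared by Ccl3, Ccl5, Ccl6 and Ccl9 (log2 fold change -0.23, adjusted p = 0.666) and Xcr1 (0.55, adjusted p = 0.463).

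**Figure D5:**
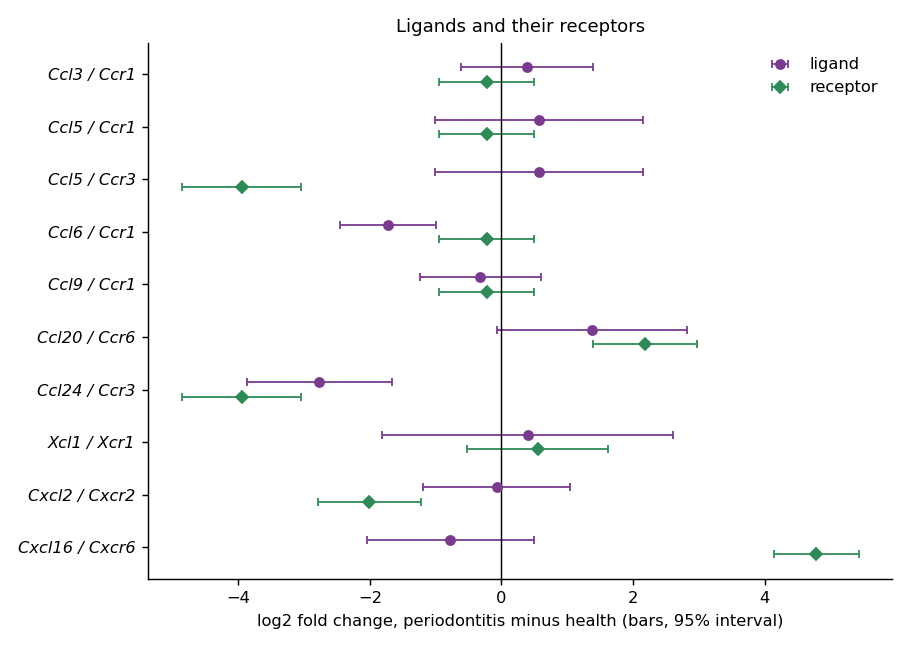
Log2 fold change (periodontitis minus health) of ligands (purple circles), each beside a receptor it binds (green diamonds), with 95% intervals. Ccl24 and Ccr3 both lie below 0, Cxcr6 lies at 4.78 beside Cxcl16 at -0.77, and Cxcr2 lies at -2.01 beside Cxcl2 at -0.07.

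The genes most alike to each ligand were those with the highest Pearson r of log2(FPKM + 1) over the 7 libraries, among 10518 protein-coding genes. The libraries share groups and depths, and with 7 points a high r among so many genes is a description only. Ccl5 was most like Mgst2 (r = 0.974) and Nkg7 (0.957), a granule protein of NK cells and cytotoxic T cells. Ccl6 was most like Tpd52 (0.988), which also fell in periodontitis, and Pus10 (0.985). Ccl24 was most like Ier3 (0.988) and the interferon-induced Oas1g (0.981), both of which fell. Ccl20 was most like Klf10 (0.994) and Rbm24 (0.986), both highest in periodontitis 3.

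For the other 6 ligands none of the alike genes passed the test between groups. These were Ogfr and Slfn2 for Ccl3 (0.984 and 0.969), Mis18a and D10Jhu81e for Ccl4 (0.943 and 0.939), Ift80 and Noxred1 for Ccl9 (0.967 and 0.958), Tsfm and Apobec2 for Xcl1 (0.994 and 0.988), Kcmf1 and Zfp414 for Cxcl2 (0.964 and 0.961), and Nudt3 and Vma21 for Cxcl16 (0.994 and 0.993). Nudt3, Vma21, Tsfm and Apobec2 were, like Cxcl16 and Xcl1, highest in periodontitis 2 and lowest in periodontitis 4, the library with the fewest genes read.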

How the data were processed

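RNA of sorted spleen cells was sequenced on an Illumina NovaSeq, per the labels' protocols. The submitters' processing notes name mm10, HISAT2 2.0.5, featureCounts 1.5.0-p3 and DESeq2, with no role or order. The sources used here give neither the strand setting nor the read length nor the annotation release. The authors deposited FPKM values per gene and library, with gene length and position. FPKM times length gave whole reads for 100% of values within 0.001 of a read, so depth was recovered from them. The total that scaled the FPKM was 0.889 to 1.12 times the recovered reads in periodontitis and 0.928 to 1.05 times in health. The deposited FPKM are thus not scaled to recovered depth alone. FPKM totals differ, 475268 to 568848 in periodontitis and 375857 to 379328 in health, and features under 200 bases hold 1.40% to 36.7% and 3.31% to 9.63% of them. No library pair agreed within sampling noise (chi-square per degree of freedom at least 27.3). A gene name with several entries (105 extra in all) stands for its most abundant one.

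Genes averaging 1 FPKM or more were fitted with limma 3.58.1 (R 4.3.3, empirical Bayes with trend) on log2(FPKM + 1), which understates the change of low genes, and two-sided p-values were adjusted by Benjamini-Hochberg over all genes. FPKM values are not counts, so limma voom on recovered reads was run only as an alternative, and a hand-written TMM (trimmed mean of M-values) scaling was used in it. Ratios were compared by exact permutation (scipy 1.17.1). Floors of 3 reads cover counting error only. The fit was tested on simulated data. Members, lists and tests were chosen with earlier results of these data known. All 10 ligands, their receptors (1 of which is not reported here), other listed ligands or receptors that passed, and the 2 genes most alike to each ligand are named. Same-numbered libraries did not deviate together and were not treated as pairs, though so few correlations cannot settle pairing. The labels name no pairs, and the periodontitis sample titles are numbered differently from the library names. Alternatives were another pseudocount, no filter, 4 other scalings, voom, library weights and leaving out each library.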

Additional observations from a re-analysis of the deposited data

Results flagged for a closer look

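In 37 groups of 4 health libraries, 1 group for each ligand or receptor tested, 5 had a library far from the other 3. The cutoff marks about 1 in 20 groups of normally spread values, a rate that does not hold for genes mostly at 0. Ccl20 had 0.17 FPKM in health 1 and 0 in the other 3, and Ccl21a had 0.150 FPKM in health 1 and 0 in the others. Both values rest on at most 4 reads, and with 0 in the other 3 libraries any read is flagged. Ccr6 had 14.8 FPKM in health 4, against 9.56 to 10.1 FPKM in health 1 to 3. Ccr10 had 5.37 FPKM in health 3, against 0.987 to 1.68 FPKM in the others. Xcr1 had 4.44 FPKM in health 4, against 0.812 to 1.37 FPKM in the others. The cause of these values was not tested. The periodontitis group, with 3 libraries, is too small for this check.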

How the results depend on the processing

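Ccl6 and Ccl24 stayed lower and past the threshold in all 16 alternatives. The alternatives reuse the same libraries and are not independent of one another. Ccl24 passed the filter on low levels through health alone, and without that filter its adjusted p was 0.0240 (limma). Leaving out the relative scaling to CD3 genes and the replicate block, the log2 fold change ran from -2.17 to -1.31 for Ccl6 and from -5.14 to -2.44 for Ccl24, with adjusted p-values of up to 0.0261 and 0.0438. The other 8 ligands stayed short of the threshold except as follows, and in no case was the cause tested. Ccl20 passed without periodontitis 4 (2.09, adjusted p = 0.0230, against a range of up to 0.296), and Cxcl16 without periodontitis 2 (-1.49, adjusted p = 0.0423, against a range of up to 0.835). Ccl20 passed the filter through periodontitis alone and had no read in periodontitis 4, so its call is no further support. Leaving out 1 library gave 0 to 1 ligands higher and 2 to 3 lower.

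Relative to the 4 CD3 genes, which are themselves higher in periodontitis, 9 ligands, 5 other ligands, 14 receptors and 12239 of all genes were lower, and 1 receptor and 24 genes were higher. Under this scaling the log2 fold change was -2.16 for Ccl3, -1.73 for Ccl4, -1.97 for Ccl5, -1.17 for Ccl20 and -2.15 for Xcl1. The direction of ligands short of the threshold also turned elsewhere. Ccl3 was -0.043 with equal FPKM totals, and -0.16 to 0.67 with 1 library left out. Ccl5 was -0.054 with library weights, and -0.027 to 0.95 with 1 library left out. Xcl1 was -0.37 with a pseudocount of 0.1 FPKM, -0.50 with voom, and -0.69 to 1.62 with 1 library left out. Cxcl2 was 0.24 with quantile scaling, 0.19 with library weights, and -0.40 to 0.50 with 1 library left out.

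Over all genes, 732 were higher and 1321 lower. Equal totals gave 414 and 2746, and leaving out 1 library gave 445 to 879 and 871 to 1372. The higher share of calls was 35.7%, against 13.1% with equal totals, 42.7% with quantile scaling, 26.8% without short features and 0.196% relative to CD3 genes, as the median moved by -0.40, 0.12, -0.15 and -2.55. Other ligands lower numbered 1 without the filter (Ccl2), 2 with equal totals and 2 without short features (Ccl2 and Cxcl9 in both). With 1 library left out they numbered 0 to 2 (Ccl2 without periodontitis 2 or 3, and Ccl2 and Cxcl9 without periodontitis 4). Ccl2 averaged 0.981 FPKM over the 7 libraries and had no read in periodontitis. Where it passed the filter it did so through health alone, which favours a call, so these calls of Ccl2 are no further support. Same-numbered libraries did not deviate together (correlations -0.05, -0.02 and 0.04), so the replicate block on libraries 2 to 4 rests on numbers alone: it gave 325 genes higher and 616 lower, 0 ligands higher and 2 lower, and a log2 fold change of -0.01 for Ccl5. By alternatives chosen after seeing the data, the difference in the log2 Ccl6 to Ccl9 ratio was -1.44 from reads and -1.61 to -1.04 with 1 library left out, and that of Ccl4 to Ccl3 was 0.49 and -0.12 to 0.80. Genes at few reads, such as Ccl20 in health, are limited by depth.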
